A study of Homo sapiens with 4 samples.

Results

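Heparan sulfate is a long sugar chain carried by cell surface and matrix proteins, and its pattern of sulfate groups decides which growth factors, morphogens and proteases bind to it. The sulfotransferases that write this pattern and the sulfatase SULF2 that edits it are described here in C4-2, a human prostate cancer cell line. The set held 10 genes of the 60483 counted: the 3-O-sulfotransferases HS3ST1, HS3ST2, HS3ST3A1, HS3ST3B1, HS3ST4 and HS3ST5, the 6-O-sulfotransferases HS6ST1 and HS6ST2, the 2-O-sulfotransferase HS2ST1, and SULF2. HS3ST4 was chosen by its own rise in these libraries, the measured counts of the comparison reported here, and the others were added as its family with results already known. The values of HS3ST4 are therefore a description with no test.

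RNA was sequenced from 2 libraries of control cells (C4-2-CON) and 2 of enzalutamide-resistant cells (C4-2-ENZ), all at passages 20 to 30 in medium with 10% serum. Enzalutamide is a drug that blocks the androgen receptor. Culture lasted 1 month with or without the drug, so exposure to the drug and resistance cannot be told apart. The labels do not say whether control cells received vehicle, whether the resistant cells are 1 clone, or which cells, if any, met the FGF-2 named in the growth protocol. Separate cultures are not stated for the replicates either, and the p-values thus reflect library-to-library spread that may be technical.

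Heparan sulfate chains are built in the Golgi on a core protein. A linker is laid down first, EXT1 and EXT2 lengthen the chain, and NDST enzymes replace acetyl groups with sulfate. GLCE then turns glucuronic into iduronic acid, 2-O- and 6-O-sulfotransferases follow, and 3-O-sulfation, the rarest of these marks, usually comes last. HS3ST1 is known for making the binding site for antithrombin, and HS3ST2, HS3ST3A1, HS3ST3B1 and HS3ST4 for sites that the herpes simplex virus glycoprotein gD can bind. HS3ST2 and HS3ST4 are best known from neurons. SULF2 is secreted and removes 6-O-sulfate outside the cell.

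Gene counts totalled 25589724 to 29866008 in control and 39047453 to 45033885 in resistant libraries. Reads not aligned made up 34.16% to 36.95% of HTSeq records in control and 20.32% to 20.66% in resistant libraries, and the part of this difference in the results was not tested. The labelled cell type matched its markers. All 10 luminal prostate markers were present, with a summed level of 3237 to 3264 CPM (counts scaled to a library size of 1e6) in control and 4627 to 4633 CPM in resistant libraries. No library exceeded 9.47 CPM summed over the fibroblast, endothelial, leukocyte, neural or mast cell list, and COL1A2, CD3E, TPSAB1 and MS4A2 had no count.

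The RefSeq promoter windows of HS3ST4 and HS3ST2 are shown because both genes lie on chromosome 16 and encode related isozymes, yet HS3ST4 was the member with the largest change and HS3ST2 had no read in any library. Each is the 250 bases before the RefSeq start in GRCh38.p14, on the plus strand, at chr16:25691709-25691958 for HS3ST4 and chr16:22813912-22814161 for HS3ST2. In the GENCODE annotation, the bases checked just after the start lie in a transcript for HS3ST2 but not for HS3ST4. Capitals mark the GC box GGGCGG on either strand.
HS3ST4: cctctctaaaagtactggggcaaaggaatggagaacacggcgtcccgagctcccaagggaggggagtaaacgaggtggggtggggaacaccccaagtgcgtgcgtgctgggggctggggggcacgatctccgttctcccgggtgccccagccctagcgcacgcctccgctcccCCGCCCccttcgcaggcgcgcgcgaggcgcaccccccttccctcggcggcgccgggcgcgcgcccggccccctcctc
HS3ST2: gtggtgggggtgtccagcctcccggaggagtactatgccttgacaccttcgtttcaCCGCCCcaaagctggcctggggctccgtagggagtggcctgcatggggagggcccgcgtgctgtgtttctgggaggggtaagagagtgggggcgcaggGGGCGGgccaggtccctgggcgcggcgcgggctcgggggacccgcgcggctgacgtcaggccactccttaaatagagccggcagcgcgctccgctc
The window of HS3ST4 held 1 GC box, 77 bases before the start, and that of HS3ST2 held 2, at 194 and 96 bases. Of 35116 such windows in the table, 42.6% held a GC box. On both strands, neither window held the AP-1 motif TGANTCA, the E-box CACGTG or the TATA box TATAAA. These stood in 6.57%, 6.34% and 10.7% of all windows. G and C made up 72.8% of the HS3ST4 window and 70.4% of the HS3ST2 window.

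The comparison asked how these genes differ between enzalutamide-resistant and control cells. HS3ST1 and HS3ST4 stood far higher in resistant cells, HS6ST1 and HS6ST2 rose by less than 2-fold, and HS2ST1 moved by 1.08-fold. HS3ST3B1 and SULF2 were not called, and HS3ST2, HS3ST3A1 and HS3ST5 had too few reads to test. Values were tested with the quasi-likelihood test of edgeR over 20325 genes, with Benjamini-Hochberg adjustment and a threshold of 0.05 for a call. Of all genes tested, 64.7% were called, 33.0% higher and 31.7% lower. Of the 9 members other than HS3ST4, 6 passed the filter on low counts, 4 were called higher and 0 lower. Since the members were chosen with this comparison known, nothing is read from that count.

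**Figure D1:**
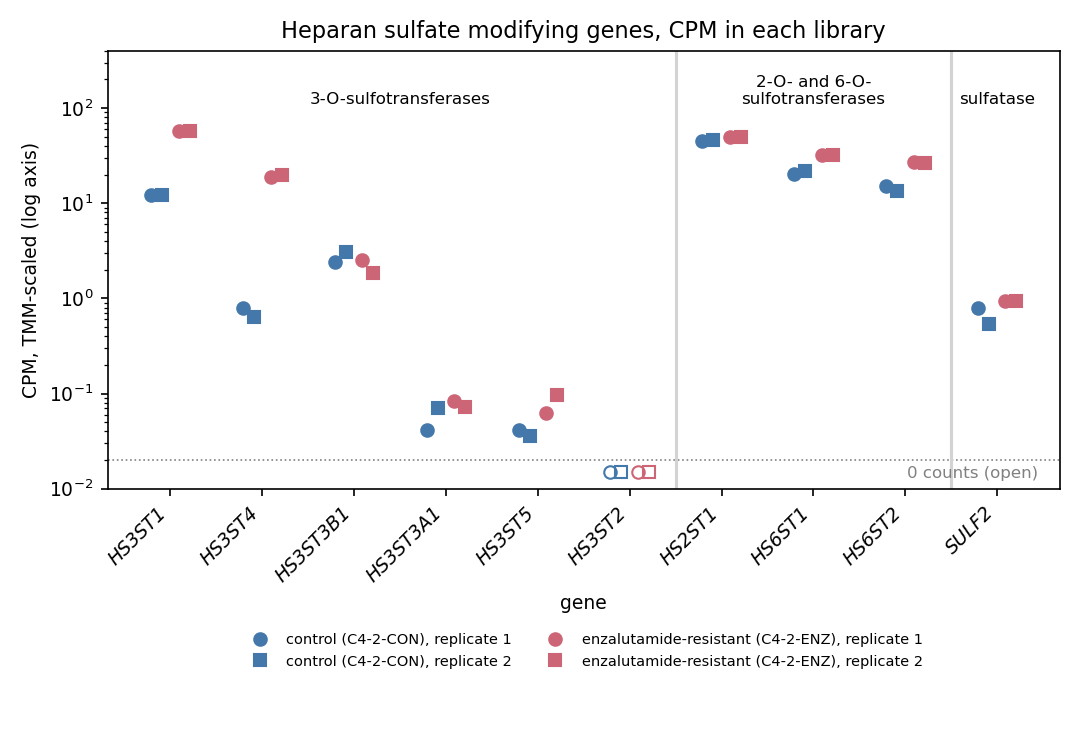
CPM of each of the 10 genes (x axis) in each of the 4 libraries, on TMM-scaled library sizes and a log axis; open symbols at the bottom are 0 counts. HS3ST1 and HS3ST4 stand apart by group, at 12.1 to 12.2 against 56.8 to 57.5 CPM and 0.641 to 0.796 against 19.0 to 19.8 CPM, while HS3ST3B1 overlaps.

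HS3ST4 (ENSG00000182601, chromosome 16, 25692026 to 26137688, plus strand, GRCh38) had 19 and 18 counts in control replicates 1 and 2, and 916 and 821 counts in resistant replicates 1 and 2. These are 0.796 and 0.641 CPM against 19.0 and 19.8 CPM. The groups lie far apart and both control libraries are low. In bulk RNA, more cells with the transcript and more RNA per cell cannot be told apart. The log2 fold change was 4.76, or 27.1-fold, and ranked 29 from the top among all genes tested. It lay between 4.59 and 4.95 under the alternative settings. The gene passed the count filter in all libraries of both groups, and no 50-base window of its transcripts occurs in another gene's transcripts.

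Genes that GENCODE places inside the introns of HS3ST4 were counted apart from it. The processed pseudogene ENSG00000260255, on the opposite strand at 25824710 to 25826330, had 1 and 2 counts in control and 27 and 32 counts in resistant libraries. HSPE1P16, another processed pseudogene there, had 0 counts in both control libraries and 2 in each resistant library. HMGN2P3 had 5 and 8 counts in control and 10 in each resistant library, which is 0.210 and 0.285 CPM against 0.207 and 0.241 CPM. So ENSG00000260255 was higher along with HS3ST4 and HMGN2P3 overlapped between groups. No strand setting is named for the counting, so reads of the 2 strands cannot be told apart.

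The nearest 3 tested protein-coding genes on each side of HS3ST4 had far smaller differences. Their starts lie 456 to 1622 kb away. Of these 6 genes, 4 were called higher, 1 lower and 1 was not called. Among all genes tested, 33.0% were called higher and 31.7% lower. IL4R, a cytokine receptor gene, went from 1.99 to 4.08 CPM (log2 fold change 1.06, edgeR adjusted p = 2.05e-04). The other 5 lay between -0.21 for LCMT1 and 0.23 for ZKSCAN2. The LCMT1 value was -0.02 with total count scaling (adjusted p = 0.788), and its call also ended with DESeq2 (0.0681), without a count filter (0.285), without control replicate 2 (0.244) and without either resistant replicate (0.0658 and 0.0839). ZKSCAN2 was not called with DESeq2 (adjusted p = 0.0979) or without resistant replicate 2 (0.0953), and its value turned to -0.04 with a correction for transcript length and GC content.

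Over the 4 libraries, the protein-coding genes whose centred log2 CPM came closest to that of HS3ST4 were FOS, PRR16, SHH, HDAC9 and HLA-DRB1. Their Euclidean distances were 0.122, 0.358, 0.403, 0.406 and 0.442 among 13941 genes compared. FOS, a subunit of the AP-1 transcription factor, had 0.922 and 0.819 CPM in control and 22.7 and 22.2 CPM in resistant libraries. SHH, a secreted morphogen, had 0.168 and 0.107 CPM in control and 5.68 and 6.67 CPM in resistant libraries. With 4 libraries in 2 groups, this likeness rests on a step of similar size between the groups.

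HS3ST1 (ENSG00000002587, chromosome 4, 11393150 to 11429765, minus strand) had 289 and 344 counts in control and 2776 and 2358 counts in resistant libraries. In CPM it had 12.1 and 12.2 in control and 57.5 and 56.8 in resistant libraries. The replicates of each group lie close together and the groups do not overlap, as for 81.3% of all genes tested, 40.4% with the resistant libraries higher. HS3ST1 rose 4.69-fold (log2 fold change 2.23 with SE 0.0576, edgeR adjusted p = 4.70e-11), rank 285 from the top. The value lay between 1.96 and 2.42 under the alternatives. Of its 6 nearest tested neighbours, 3 were called higher and 3 were not called, where 33.0% of all genes tested were called higher. The neighbours ranged from -0.13 for RAB28 to 1.20 for NKX3-2, a homeobox transcription factor gene whose start lies 2148 kb away.

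HS3ST3B1 (ENSG00000125430, chromosome 17, 14301083 to 14349404) had 2.39 and 3.10 CPM in control and 2.55 and 1.86 CPM in resistant libraries. The groups overlap. The log2 difference, -0.32 (SE 0.197, edgeR adjusted p = 0.182), passed the threshold without control replicate 1 (-0.48, adjusted p = 0.0222), without resistant replicate 1 (-0.56, adjusted p = 0.03) and with the length and GC correction (-0.48, adjusted p = 0.0401). The neighbouring gene HS3ST3A1 has a near-identical catalytic part, and 20.4% of its 50-base windows also occur in HS3ST3B1, so reads from that stretch may be split between the rows or missing. As a pair, both genes held 23.3% of the summed 3-O-sulfotransferase level in control and 3.33% in resistant cells, by the length scale described next.

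The remaining 3-O-sulfotransferases were at or near the limit of detection. HS3ST3A1 had 1 and 2 counts in control and 4 and 3 in resistant libraries. HS3ST5 had 1 count in each control library and 3 and 4 in resistant libraries. HS3ST2 had 0 counts in all 4 libraries, which allows up to 0.0577 CPM in control and 0.0334 CPM in resistant cells, taking 3 counts over a group as the limit and covering counting error only. HS3ST6, an isozyme outside the set, had 2 counts in control and 1 in resistant libraries. None of these 4 passed the filter, and no fold change is given for them.

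Levels of different genes can be compared only per length, so CPM was divided by the kilobases of exons annotated for each gene. Summed over the 7 human 3-O-sulfotransferase genes, this level was 2.19 and 2.36 CPM per kb in control and 13.2 and 13.2 CPM per kb in resistant libraries. The ratio of the group means was 5.81, and 3.62 with HS3ST4 left out. HS3ST1 made up 65.7% ± 2.92 (SD, n = 2) of the control sum and 53.0% ± 0.59 of the resistant sum. HS3ST4 made up 9.40% ± 1.92 in control and 43.4% ± 1.17 in resistant libraries. HS3ST3B1 made up 22.4% ± 2.93 in control and 3.11% ± 0.699 in resistant libraries. The second isozyme by level was thus HS3ST3B1 in control and HS3ST4 in resistant cells. The share of HS3ST4 in resistant libraries depends on the length used, and was 18.1% per kb of coding sequence and 24.6% with no length scaling. These shares contain HS3ST4 and are given as a description.

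**Figure D2:**
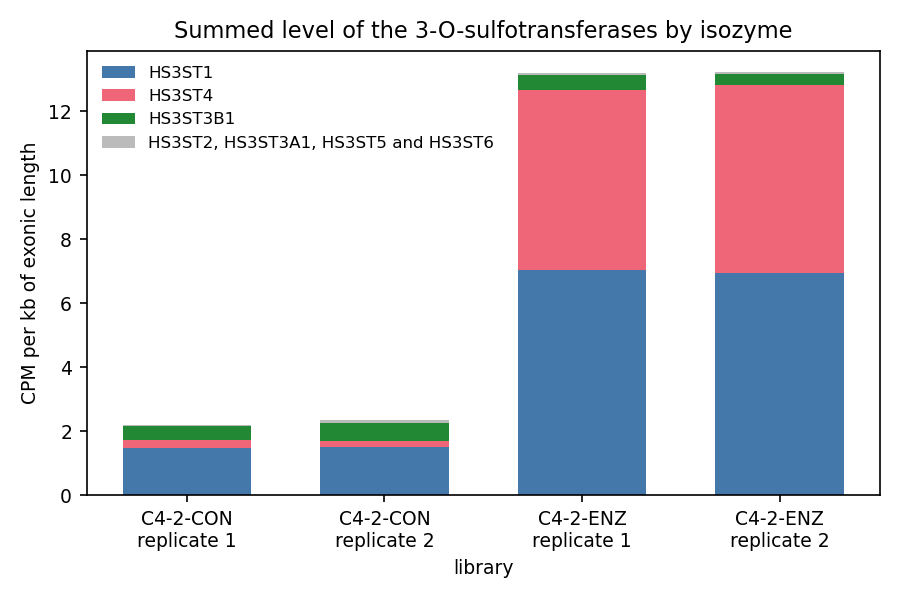
Stacked bars of CPM per kb of exonic length (y axis) for the 3-O-sulfotransferase genes in each library (x axis). The control bars reach 2.19 and 2.36 and the resistant bars 13.2, with HS3ST1 the largest part in each and HS3ST4 the second largest in both resistant libraries.

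HS6ST1 (ENSG00000136720, chromosome 2, 128236716 to 128318577), which adds sulfate at the 6-O position, had 20.3 and 21.6 CPM in control and 31.8 and 31.9 CPM in resistant libraries. The groups do not overlap, as for 81.3% of all genes tested, 40.4% with the resistant libraries higher. HS6ST1 rose 1.52-fold (log2 fold change 0.61, SE 0.0595, edgeR adjusted p = 2.81e-06), and with the length and GC correction its log2 fold change was 0.29. A processed pseudogene, HS6ST1P1, shares 15.1% of the gene's 50-base windows, and its own row had 0.236 CPM in control and 0.488 CPM in resistant libraries on average.

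HS6ST2 (ENSG00000171004, chromosome X, 132626016 to 132961395), the second 6-O-sulfotransferase, had 15.1 and 13.6 CPM in control and 27.1 and 26.4 CPM in resistant libraries. Here too both resistant libraries lie above both control libraries, as for 40.4% of all genes tested. HS6ST2 rose 1.87-fold (log2 fold change 0.90, SE 0.0679, edgeR adjusted p = 2.68e-07), between 0.83 and 1.09 under the alternatives. The next tested genes after it on the X chromosome are the heparan sulfate core protein genes GPC4 and GPC3, with starts 674 and 910 kb away, and they went opposite ways (log2 fold changes 0.93 and -0.45). HS6ST3, the other 6-O-sulfotransferase gene, had 9 counts in control and 22 in resistant libraries and was not tested.

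HS2ST1 (ENSG00000153936, chromosome 1, 86914648 to 87109998), the only 2-O-sulfotransferase of heparan sulfate, had 45.6 and 46.3 CPM in control and 49.9 and 49.7 CPM in resistant libraries. Its log2 difference, 0.12 (SE 0.0448, edgeR adjusted p = 0.0415), is at the edge of the threshold. The call ended with DESeq2 (adjusted p = 0.175), with a filter of 1 CPM (0.183), with the replicate block (0.119) and without control replicate 1 (0.0875), resistant replicate 1 (0.195) or resistant replicate 2 (0.153). GENCODE places another protein-coding gene, ENSG00000267561, across 13 annotated exons of HS2ST1, counted once per transcript, and that gene had 4 to 7 counts per library. The part of such overlap in the value was not tested.

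SULF2 (ENSG00000196562, chromosome 20, 47656348 to 47786616) was low, at 0.796 and 0.534 CPM in control and 0.932 and 0.940 CPM in resistant libraries. Its log2 fold change was 0.51 (SE 0.269, edgeR adjusted p = 0.116), and it was called with total count scaling (0.70, adjusted p = 0.038). The value was 0.81 without control replicate 1, 0.24 without control replicate 2 and 0.25 with the length and GC correction, none of them called. The groups do not overlap, as for 81.3% of all genes tested, but with 15 to 45 counts per library the counting error is large. The 3′ end of SULF2 overlaps that of NCOA3 by 530 bases on the opposite strand. NCOA3, a nuclear receptor coactivator, went from 45.6 to 97.3 CPM, and without a stated strand setting reads in this stretch cannot be told apart. SULF1, the other extracellular 6-O-sulfatase, had 9 counts in control and 42 in resistant libraries, and passed the filter through the resistant libraries alone, so no test is given for it.

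Per kb of exons, the order in control cells was HS2ST1 (6.19 CPM per kb), HS6ST1 (4.47), HS6ST2 (2.87), HS3ST1 (1.49), HS3ST3B1 (0.511), HS3ST4 (0.213) and SULF2 (0.0999). In resistant cells it was HS3ST1 (6.999 CPM per kb), HS6ST1 (6.81), HS2ST1 (6.70), HS3ST4 (5.73), HS6ST2 (5.35), HS3ST3B1 (0.410) and SULF2 (0.141). No 2 neighbours in either order overlapped between libraries, though with n = 2 this was not tested. On this exonic scale HS3ST1 stood below HS2ST1 and both 6-O-sulfotransferases in control, and next to HS6ST1 and HS2ST1 in resistant cells. The order depends on the length used. In control, HS3ST1 had 12.2 CPM on 921 coding bases and HS6ST2 14.3 CPM on 1989, so by coding length HS3ST1 stands above HS6ST2.

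The other genes of heparan sulfate synthesis and breakdown were read from lists of 54 genes, of which 49 were tested. XYLT1, SULF1 and CD44 passed the filter through the resistant libraries alone. Of the other 46, 30 were called higher, 7 lower and 9 were not called, where 33.0% of all genes tested were called higher and 31.7% lower. Their median log2 fold change was 0.39 against -0.02 over all genes tested. Corrected for length and GC, 26 of all those tested were called higher and 9 lower (median 0.19), where the median of all genes was -0.05. The corrected counts and median include XYLT1, SULF1 and CD44, so they are not on the same genes as the 46. For comparison, 9 of 15 tested enzymes of chondroitin and dermatan sulfate, the other main family of such chains, were higher and 3 lower (median 0.31). None was called lower with total count scaling or with DESeq2, where 4760 and 4836 of all 20325 genes tested were. Correction for length and GC brought the median of these enzymes to 0.19. CHST7, a 6-O-sulfotransferase of chondroitin, was at -0.94 (edgeR adjusted p = 0.0243). It lost its call with total count scaling (adjusted p = 0.0605) and with DESeq2 (0.18). The value of CHST7 was -0.71 without control replicate 1 and -0.70 without resistant replicate 1. Among those that rose, CSGALNACT1, which starts chondroitin chains, and the 4-O-sulfotransferase CHST11 had log2 fold changes of 1.30 and 1.46. The sulfotransferase CHST15 had 1.34.

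**Figure D3:**
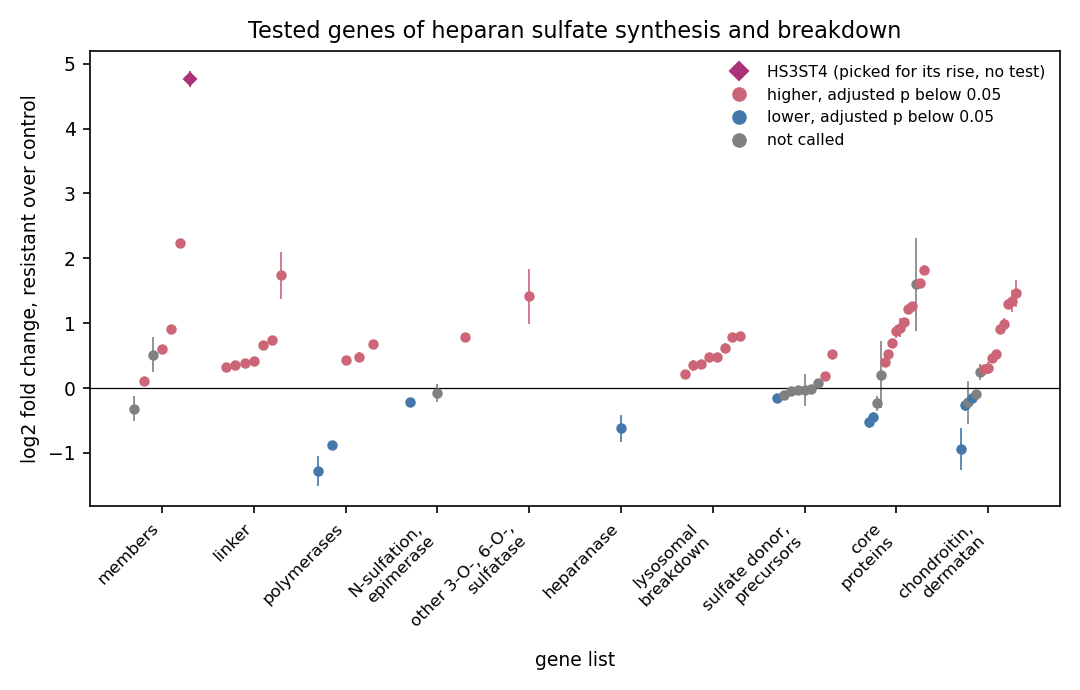
Log2 fold change, resistant over control (y axis, bars are SE), of each tested gene in the 10 gene lists (x axis), coloured by its call. XYLT1, SULF1 and CD44 passed the filter through the resistant libraries alone, so their colours are not read as tests. The bar of HS3ST4 is not a test of its rise either. HS3ST4 at 4.76, shown with no test, and HS3ST1 at 2.23 lie above every other gene shown, and the sulfate donor list sits near 0.

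The linker genes, which attach the first sugars to the core protein, were called higher in 6 of the 6 that passed the filter in both groups, where 33.0% of all genes tested were. XYLT2, a xylosyltransferase, went from 23.2 ± 1.82 to 38.8 ± 0.713 CPM (SD, n = 2) and B4GALT7 from 17.2 ± 0.603 to 27.2 ± 0.358 CPM. XYLT1, the other xylosyltransferase, was at 0.236 CPM in control and 0.777 CPM in resistant libraries on average. With the length and GC correction PXYLP1, a phosphatase acting on the linker, turned from 0.32 to -0.02 and was not called (adjusted p = 0.743).

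The polymerase list split. EXT1 and EXT2, which together form the chain polymerase, rose by log2 fold changes of 0.68 and 0.43 (edgeR adjusted p = 2.53e-06 and 1.04e-05). EXTL3, which begins the heparan sulfate chain, had 0.48, and was not called with the length and GC correction (0.11, adjusted p = 0.189). EXTL2 had 27.2 and 27.4 CPM in control and 14.8 and 14.9 CPM in resistant libraries, and fell by 0.88 on the log2 scale (edgeR adjusted p = 9.29e-08). EXTL2 can add a capping sugar to the linker. EXTL1 fell by 1.27 on the log2 scale, at 1.62 and 0.660 CPM on average.

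NDST1, the main N-deacetylase and N-sulfotransferase of most tissues, had 54.4 and 49.8 CPM in control and 89.3 and 90.7 CPM in resistant libraries. It rose 1.73-fold (log2 fold change 0.79, SE 0.0494, edgeR adjusted p = 5.40e-08), and its value was 0.36 with the length and GC correction. NDST2 was not called (log2 fold change -0.08, and 0.11 with total count scaling or 0.02 without a count filter), and NDST3 and NDST4 had 1 count each over all libraries. GLCE, the epimerase, fell 1.17-fold from 37.7 to 32.3 CPM (edgeR adjusted p = 0.00277), and was not called with total count scaling (-0.03, adjusted p = 0.593), without a count filter (0.198) or without resistant replicate 1 (0.0586).

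Of the 9 sulfate donor and precursor genes, 2 were called higher, 1 lower and 6 were not called (median -0.03). Over all genes tested, 33.0% were called higher and 31.7% lower. The counts of the 9 depend on the processing, with 6 higher and 0 lower with total count scaling and 1 higher and 0 lower with DESeq2. Of all 20325 genes tested, 8616 were higher and 4760 lower with total count scaling, and 5568 higher and 4836 lower with DESeq2. PAPSS1, which makes the sulfate donor PAPS, went from 48.7 ± 2.86 to 69.8 ± 0.947 CPM (log2 fold change 0.52, edgeR adjusted p = 1.59e-06). SLC35B3, a PAPS transporter of the Golgi, had 0.19, and was not called with DESeq2 (adjusted p = 0.116) or without either resistant replicate (0.0798 and 0.0623). Its value was 0.50 with the length and GC correction. BPNT1, which breaks down the spent donor in the cytosol, was at -0.16, and this turned to 0.03 with total count scaling. Its call also ended with DESeq2 (adjusted p = 0.0697), without a count filter (0.607), with the length and GC correction (0.802) and without either resistant replicate (0.152 and 0.0833).

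The 8 lysosomal enzymes that take the chain apart were all called higher (median 0.48), where 33.0% of all genes tested were. HGSNAT, an acetyltransferase of the lysosomal membrane, had 27.0 and 24.6 CPM in control and 45.6 and 42.7 CPM in resistant libraries, a 1.72-fold rise (log2 fold change 0.78, edgeR adjusted p = 4.81e-07). IDS, iduronate 2-sulfatase, rose 1.54-fold. Corrected for length and GC, 5 were called higher and 1 lower, where 5886 of all 20122 genes tested were higher and 6914 lower. SGSH then turned from 0.21 to -0.20 (adjusted p = 0.00527). HPSE, the heparanase that cuts chains outside the cell, was lower at 1.63 and 1.07 CPM on average (log2 fold change -0.62, edgeR adjusted p = 0.0232). That call ended with DESeq2 (adjusted p = 0.185), total count scaling (0.0941) or no count filter (0.0522), and without control replicate 2 (0.0697) or resistant replicate 1 (0.196). HPSE2 had 6 counts in control and 2 in resistant libraries and was not tested.

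Of the 14 core protein genes that passed the filter in both groups, 10 were called higher, 2 lower and 2 were not called (median log2 fold change 0.79). The share over all genes tested was 33.0% higher and 31.7% lower. Corrected for length and GC, 8 core protein genes were called higher and 4 lower, where 5886 of all 20122 genes tested were higher and 6914 lower. All 4 syndecans, the membrane-spanning core proteins, rose at least 2-fold. SDC3 stood at that limit, with log2 fold changes of 0.63 when corrected for length and GC, 0.97 under the 1 CPM filter and 0.99 without control replicate 2. Of all genes tested, 7.58% rose and 10.1% fell by that much. SDC2 had 12.6 and 12.1 CPM in control and 42.8 and 44.8 CPM in resistant libraries, a 3.55-fold rise (log2 fold change 1.83, SE 0.0630, edgeR adjusted p = 3.94e-10). SDC4 had 70.4 and 71.5 CPM in control and 219.0 and 216.5 CPM in resistant libraries, a 3.07-fold rise (edgeR adjusted p = 4.16e-11). SDC1 rose 2.39-fold from 37.2 ± 1.81 to 89.1 ± 1.65 CPM, and SDC3 2.03-fold from 21.5 ± 0.700 to 43.5 ± 0.230 CPM (SD, n = 2). In each of them both resistant libraries lie above both controls, as for 40.4% of all genes tested. All 4 syndecans stayed called under each alternative that kept all 4 libraries.

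**Figure D4:**
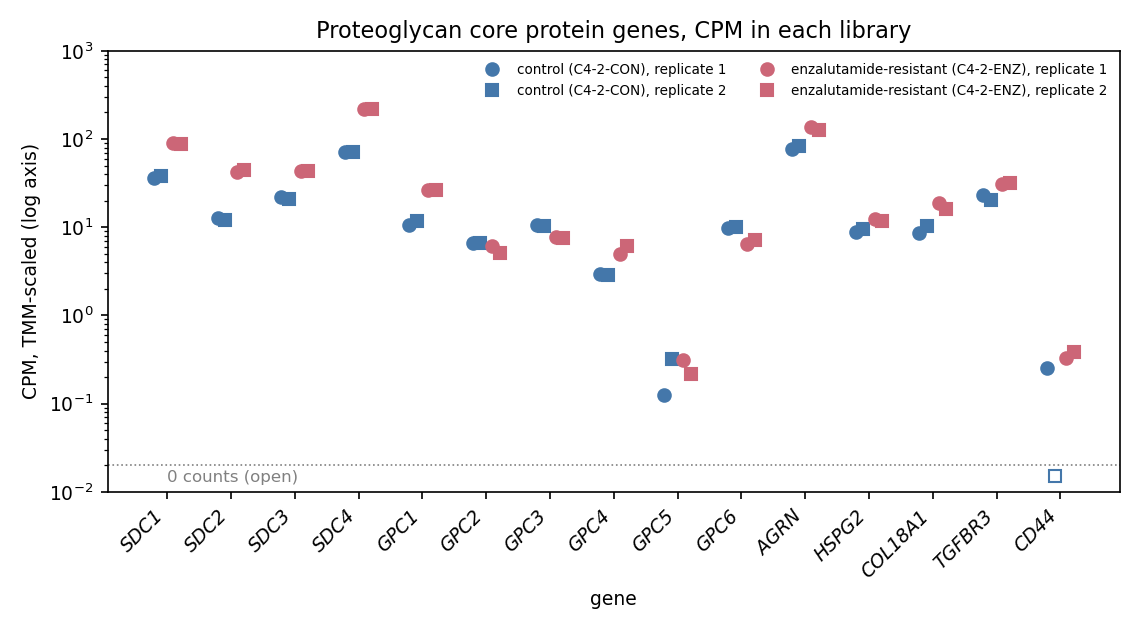
CPM of the heparan sulfate core protein genes (x axis) in each library, on TMM-scaled library sizes and a log axis; the open symbol is 0 counts. The 4 syndecans and GPC1 are higher in both resistant libraries, while GPC3 and GPC6 are lower. Over all genes tested, 81.3% did not overlap between groups, 40.4% with the resistant libraries higher.

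The glypicans, which are tied to the membrane by a lipid anchor, split instead, with 2 higher, 2 lower and 2 not called. Calls over all genes tested were 33.0% higher and 31.7% lower. GPC1 went from 11.3 ± 0.746 to 26.4 ± 0.271 CPM, a 2.34-fold rise (log2 1.23, edgeR adjusted p = 1.84e-08), or 0.67 corrected for length and GC. GPC4 rose 1.90-fold from 2.91 ± 0.0901 to 5.56 ± 0.861 CPM. GPC3 fell 1.37-fold and GPC6 fell 1.44-fold (edgeR adjusted p = 3.55e-04 and 2.58e-04). Whether syndecans and glypicans differ as classes was not tested.

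The secreted core proteins AGRN (agrin) and COL18A1 (collagen XVIII) had log2 fold changes of 0.70 and 0.88. With the length and GC correction AGRN was at 0.001 (adjusted p = 0.991) and COL18A1 at 0.24 (adjusted p = 0.0168). HSPG2 (perlecan) had 0.40, which turned to -0.28 with that correction (adjusted p = 0.00403). TGFBR3, the betaglycan coreceptor, had 0.53, and 0.34 with the correction. CD44, which carries such chains in some splice forms, had 6 and 0 counts in control and 32 in resistant libraries together, and passed the filter through the resistant libraries alone, so no test is given for it.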

How the data were processed

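The authors deposited raw read counts per gene, 1 table per library, for 2 libraries of control and 2 of enzalutamide-resistant C4-2. The submitters' processing notes name STAR 2.5.2b, HTSeq and the build GRCh38 (hg38). They name no strand setting, counting mode or annotation release. The 5 summary rows of each table, 55.41% to 74.4% of records, were left out of library sizes and tests.

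Identifiers were matched without version to GENCODE 29 (56753 of 60483). Resistant was compared with control in edgeR 4.0.16 (R 4.3.3; filterByExpr at a minimum count of 10, TMM scaling, quasi-likelihood test, group as the only term, 2 residual degrees of freedom). P-values were adjusted over all 20325 genes tested. The SE is the log2 fold change divided by the square root of F. Counts differed by more than sampling noise within each pair (chi-square per degree of freedom 6.46 and 2.60). Each library was treated as 1 replicate, though this spread cannot show that the libraries came from separate cultures. The fit was also run on simulated counts in which few genes changed. As 64.7% of genes were called here, that run does not test the scaling or the calls.

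Members and lists were chosen with earlier results of these data known. All 10 members were named. In the wider lists a gene could be named if called with an absolute log2 fold change of at least 1, among the 3 smallest adjusted p, at a mean of at least 20 CPM, or untested. GPC3, GPC4, GPC6, HSPG2, COL18A1, CD44 and CHST7 fall outside this rule and were named after their values were seen. Neighbours of HS3ST4 were the 5 nearest profiles and the nearest 3 tested protein-coding genes on each side, a rule also used for the other members. Alternatives were total count scaling, DESeq2 1.42.0, no count filter, a filter of 1 CPM in 2 libraries, each library left out, a replicate block, and spline trends on transcript length and GC content taken out per library. Promoter sequences are from RefSeq (GRCh38.p14); all 10 members had an entry.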

Additional observations from a re-analysis of the deposited data

How the results depend on the processing

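Over all genes, 51.0% of called genes were higher with TMM scaling and 64.4% with total count scaling, which moved the median of all genes from -0.02 to 0.17. Deviations of libraries with the same replicate number were almost uncorrelated over all genes (-0.0228). This cannot show whether those libraries were grown or prepared together. With the number as a replicate block 6647 genes were higher and 6444 lower over all genes tested, against 6705 and 6443. The block ended the call of HS2ST1 (adjusted p = 0.119, edgeR) and changed no other call among the named genes given a test. Depth limits HS3ST2 (0 counts), HS3ST3A1 and HS3ST5 (1 to 4 per library) and SULF2 (15 to 45).

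For the members other than HS3ST4, 0 were lower; 1, HS3ST3B1, was lower with the length and GC correction, and 0 to 1 with a library left out. Their median of 0.56 was 0.75 with total count scaling, 0.65 without a count filter, 0.27 with the length and GC correction and 0.45 to 0.69 with a library left out. Of the other 49 heparan sulfate genes tested, 7 were lower. With total count scaling 4 were lower, as were 4760 of all 20325 genes tested. Without a count filter 4 were lower, as were 5710 of 40992. The 49 include XYLT1, SULF1 and CD44, which passed the filter through the resistant libraries alone. The median of the 49 was 0.42, and that of the 46 that passed in both groups was 0.39. With those 3 genes not set aside, the median was 0.60 with total count scaling and 0.51 without a count filter. It was 0.36 with the 1 CPM filter, 0.19 with the length and GC correction and 0.38 to 0.48 with a library left out. The cause was not tested.

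Shares within the 3-O-sulfotransferases depend on the length. With CPM per gene, HS3ST1 held 77.3% in control and 72.4% in resistant cells, HS3ST4 4.57% and 24.6%, and HS3ST3B1 17.4% in control. Per kb of coding length, HS3ST1 held 81.6% and 79.3%, HS3ST4 3.25% and 18.1%, and HS3ST3B1 14.4% and 2.40%. With the longest transcript, HS3ST1 held 52.2% in resistant cells.

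Some signs turned. The median of the glypicans (-0.01) became 0.17 with total count scaling and 0.082 with no filter on counts, and ran from -0.374 to 0.344 with a library left out. That of N-sulfation and epimerase genes (-0.08) became 0.11 and 0.019, and that of donor and precursor genes (-0.03) became 0.161 and 0.069, under the first 2 of these settings. NDST2 went to 0.11 and 0.019 likewise, and BPNT1 to 0.033 with total count scaling. With the length and GC correction SGSH went to -0.20, PXYLP1 to -0.024, HSPG2 to -0.28 and ZKSCAN2 to -0.04.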
